A study of Mus musculus with 12 samples.

Results

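mir-375 is a single-copy mouse miRNA gene, and its entries were followed in small RNA from sorted endoderm and pancreatic progenitors. Entries were taken by name, as every row of the count table that begins with mmu-mir-375 in any case. The rule found 2 of the 1053 entries, the mature arm mmu-miR-375-3p and the precursor row mmu-mir-375. The other arm, miR-375-5p, had no row. Of the 1053 entries, 633 were mature arms and 420 were precursor rows.

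The data comprised 12 small RNA libraries, 3 at each of 4 embryonic stages, and each library was made from a single embryo. The E8.5 libraries, named endoderm by the study, were tdTomato-positive cells sorted from whole embryos. These embryos carried Foxa2-CreER, a tamoxifen-dependent Cre knocked into Foxa2 (Foxa2mcm), and their dams had received tamoxifen. The E9.5, E10.5 and E11.5 libraries, named pancreatic progenitors by the study, were tdTomato-positive cells sorted from the trunk of embryos with the Pdx1-Cre transgene. All embryos carried a Cre-dependent tdTomato reporter at Rosa26 from their mothers. Fathers carried 1 mir-302 allele replaced by GFP, and which embryos inherited it was not given in the sources used here. The Cre driver, the part of the embryo and the stage all change between E8.5 and E9.5 and cannot be told apart there. A number in the library names, whose meaning was not given in the sources used here, changes with every stage, so that whatever it stands for cannot be told apart from stage in any comparison. Cre labels a lineage, so that cells that once expressed the driver and their descendants were sorted together. Messenger RNA markers of endoderm or pancreas cannot be read in a table of miRNAs, so the labels were checked only against other miRNAs. These, given below, included miRNAs of liver, mostly from E9.5 on, and miRNAs of epithelia, muscle and connective tissue at every stage. Endoderm and pancreatic progenitors are therefore used as the study's names, and which cells held each miRNA was not tested.

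miRNAs are short RNAs cut from a hairpin precursor, and the 1 strand kept, or arm, pairs through its seed at bases 2 to 8 with target messenger RNAs. miR-375 is best known as an abundant miRNA of pancreatic islets, where it restrains insulin secretion and is needed for normal endocrine cell mass. It is also found in other neuroendocrine and secretory epithelia.

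The gene lies at chr1:74900658-74900721 on the minus strand of mm10 (GRCm38.p6) and overlaps no other gene of the GENCODE M21 annotation. The nearest protein-coding genes are Cfap65, 1.4 kb away at higher coordinates, and Cryba2, a lens crystallin gene 7.5 kb away at lower coordinates. The nearest annotated miRNA genes, Gm27943 and Gm25035, are 308.9 and 313.7 kb away and had no rows under those names. The nearest miRNA genes with rows were Mir26b, 506.3 kb away, and Mir6353, 9318.1 kb away on the other side. The RefSeq hairpin of 64 bases and its 5p arm (hairpin bases 5 to 26) are shown because all reads of both entries derive from this sequence. Capitals in the hairpin mark the seed of miR-375-3p (hairpin bases 41 to 47), found by matching the seed of the study's family table, and capitals in the arm mark its own seed.
mir-375 hairpin: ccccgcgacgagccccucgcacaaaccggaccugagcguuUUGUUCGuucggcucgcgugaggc
miR-375-5p: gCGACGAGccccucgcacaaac

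The seed of miR-375-3p was looked for in other miRNAs. Of the 1738 mature mouse sequences in the RefSeq table, which do not include miR-375-3p itself, 0 carried the same bases 2 to 8, and 0 carried the same bases 2 to 7. No seed family sum was therefore formed.

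miR-375-3p was among the most counted miRNAs at every stage and rose between E9.5 and E10.5. It held 201387 counts over the 12 libraries, the 4th highest sum of all entries. At E8.5 the 3 libraries held 11297, 6917 and 11222 counts of miR-375-3p. At E9.5 they held 1713, 2116 and 685 counts. The counts were 18325, 9589 and 12454 at E10.5, and 18634, 68885 and 39550 at E11.5. These raw counts follow depth as well as level, since library totals ran from 53996 to 80075 counts at E9.5 and from 133435 to 1103383 at the other stages.

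As a share of all counts in a library, miR-375-3p was 2.17%, 1.79% and 1.89% at E8.5. The E9.5 libraries gave 2.67%, 2.64% and 1.27%. The E10.5 libraries gave 6.84%, 7.19% and 5.17%, and the E11.5 libraries 4.46%, 6.24% and 4.70%. All 6 libraries of E10.5 and E11.5 lay above all 6 libraries of E8.5 and E9.5. Counting error was small against the spread between embryos. The widest exact Clopper-Pearson 95% interval at E9.5 was 2.55% to 2.80% in replicate 1, and the interval of E9.5 replicate 3, 1.18% to 1.37%, did not reach those of the other E9.5 libraries. Such intervals cover counting error only, since reads were counted without molecular identifiers.

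Levels are given in CPM, counts scaled to a common library size with TMM, a method that sets the scale from the bulk of entries. By this measure, miR-375-3p was 19477, 17866 and 16182 CPM at E8.5. It was 27874, 22576 and 17318 CPM at E9.5. The E10.5 libraries held 69829, 82404 and 48502 CPM, and the E11.5 libraries 42532, 63099 and 47606 CPM. The order of the means was E8.5 (17842 ± 1648 CPM, SD, n = 3), E9.5 (22590 ± 5278 CPM), E11.5 (51079 ± 10714 CPM) and E10.5 (66912 ± 17138 CPM). The libraries overlapped between E8.5 and E9.5 and between E10.5 and E11.5, but not between these 2 pairs of stages. A count of 3, taken as the floor, corresponded to 2.75 to 75.8 CPM, far below every library.

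**Figure D1:**
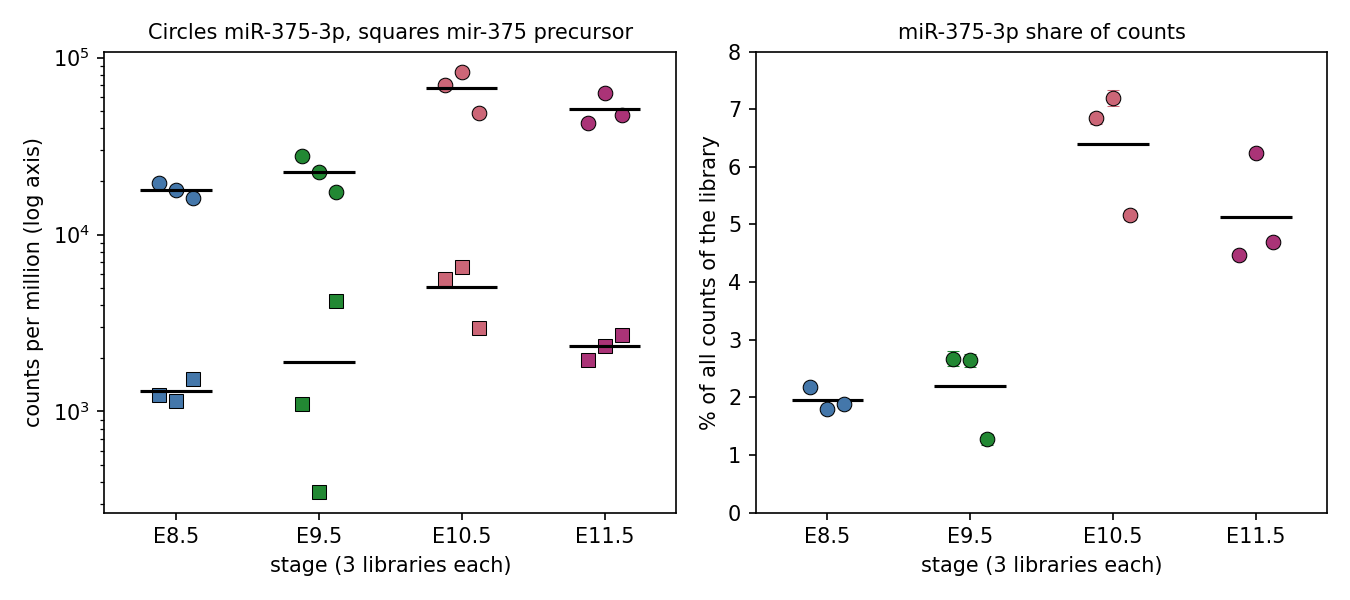
Left, level of miR-375-3p (circles) and of the mir-375 precursor row (squares) in CPM on a log axis in each of 12 libraries, by stage. Right, miR-375-3p as % of all counts, where vertical bars are exact 95% intervals, often smaller than the symbol. Horizontal lines are means of 3 libraries. miR-375-3p at E10.5 and E11.5 (42532 CPM or more) lies above every E8.5 and E9.5 library (27874 CPM or less), and E9.5 replicate 3 has the lowest share, 1.27%.

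Whether stage made any difference was tested first. The edgeR quasi-likelihood F test over all stages gave F = 26.6 for miR-375-3p (Benjamini-Hochberg adjusted p = 7.95e-06), which ranked 11th of 571 tested entries, 15.9% of which were called at the 0.05 threshold. An exact permutation test of stage labels on log2 CPM, over all 369600 assignments, gave p = 0.00117 (upper tail of the between-stage sum of squares). Replicates were taken from separate embryos. edgeR estimated the biological coefficient of variation, meant as the spread between replicates beyond counting error. It draws the value of each entry towards that of other entries, so that this is not the spread of miR-375-3p alone. The estimate was 0.468 for miR-375-3p, 4th lowest of 571 entries. The median was 1.24 over all entries and 0.546 over the 50 most abundant ones.

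From E8.5 endoderm to E9.5 progenitors, by edgeR with TMM, the level of miR-375-3p did not differ beyond its error. Its log2 fold change was 0.34 (SE 0.25, edgeR adjusted p = 0.418), with a 95% interval of -0.17 to 0.85. In this comparison 5.60% of the tested entries were called and 4.03% were called higher at E9.5. In this fit the typical entry was lower at E9.5, with a median log2 value of -0.84 over all entries. Relative to the typical entry miR-375-3p was 1.18 higher. The median depended on the fit, at 0.04 with these stages only, 0 by DESeq2 and -1.41 without a filter. Under RLE scaling, which moved that median by 0.64, miR-375-3p was called higher at E9.5, at 0.96 on the log2 scale (edgeR adjusted p = 0.0290, against 0.0290 to 0.718 over the alternatives with all libraries). DESeq2 also gave 0.96 (adjusted p = 0.188) and the edgeR fit of these stages only 0.92 (adjusted p = 0.0634), neither of them called. The size of this step thus depended on the fit. Relative to the RLE median its difference was 1.17, but scaling moves miR-375-3p and the median nearly together, so that this likeness is no check.

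Between E9.5 and E10.5 miR-375-3p rose 2.96-fold, with all 3 E10.5 libraries above all 3 E9.5 libraries. The log2 fold change was 1.57 (SE 0.25, 95% interval 1.05 to 2.09, edgeR adjusted p = 7.81e-04). Among all entries 4.38% were called, 1.58% were called higher at E10.5, and 8.76% had libraries that did not overlap and were higher. By p-value miR-375-3p ranked 2nd of 571 entries, while its log2 fold change ranked 160th. Relative to the median of all entries the difference was 1.39, and it was 1.38 under RLE and 1.33 with library size alone. Scaling moves miR-375-3p and the median nearly together, so that the likeness of these values is no check on the rise. DESeq2 gave 1.10 (adjusted p = 0.149) and limma voom 1.43 (adjusted p = 0.217), so that neither called it, against adjusted p-values of 5.62e-06 to 0.217 over the alternatives with all libraries. The call held without each of the 12 libraries in turn, including E9.5 replicate 3 (1.43, adjusted p = 4.40e-04).

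Between E10.5 and E11.5 the log2 fold change of miR-375-3p was -0.39 (SE 0.25, 95% interval -0.90 to 0.12, edgeR adjusted p = 0.576). The libraries of both stages overlapped. Few entries were called in this comparison, 0.350% of those tested. The fitted level at E11.5 was 0.763 times that at E10.5, and the interval includes no change.

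The non-adjacent comparisons set the E8.5 endoderm against the later progenitors. miR-375-3p was 3.74-fold higher at E10.5 than at E8.5 (log2 fold change 1.90, SE 0.25, edgeR adjusted p = 1.31e-05), where 8.58% of entries were called, 4.38% were called higher and 13.0% were higher without overlap. At E11.5 it was 2.85-fold higher than at E8.5 (1.51, SE 0.25, adjusted p = 2.03e-04), where 11.6% were called, 5.25% were called higher and 17.3% were higher without overlap. Both calls were kept under every alternative and without any 1 library. At E11.5 miR-375-3p was also higher than at E9.5 (1.18, SE 0.25, adjusted p = 0.00509), where 4.55% were called, 1.23% were called higher and 16.6% were higher without overlap. In all 3 comparisons each library of the later stage lay above each library of the earlier one. Relative to the median of all entries, the difference was 2.16 at E10.5 against E8.5, 1.58 at E11.5 against E8.5 and 0.51 at E11.5 against E9.5, where that median was 0.66. The call of E11.5 against E9.5 was lost without E11.5 replicate 2 (0.95, adjusted p = 0.0990) and under RLE (0.46, adjusted p = 0.395), DESeq2, limma voom and a fit of these stages only. Its adjusted p ranged from 0.00152 to 0.598 over the alternatives with all libraries.

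**Figure D2:**
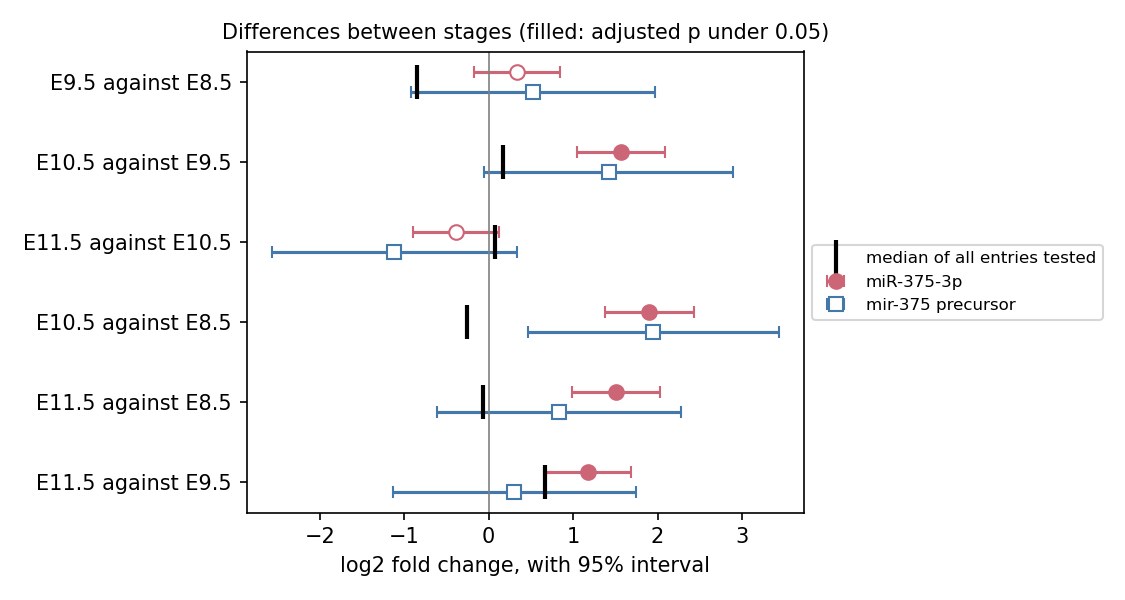
Log2 fold change of miR-375-3p (circles) and of the mir-375 precursor row (squares) in 6 comparisons of stages, with 95% intervals. Filled symbols passed an adjusted p of 0.05, and the vertical black marks are medians of all 571 tested entries. miR-375-3p passed in 4 comparisons, from 1.18 to 1.90, and the precursor row in 0.

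The place of miR-375-3p among all entries followed the same grouping of stages. By counts it ranked 7th, 8th and 8th in the E8.5 libraries and 6th, 7th and 16th in the E9.5 libraries. It ranked 2nd, 2nd and 4th at E10.5 and 5th, 3rd and 4th at E11.5. E9.5 replicate 3, where it ranked 16th, was the library with the highest share of counts in precursor rows, described below.

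The neighbours in rank by mean share changed with stage. At E8.5 miR-375-3p (1.95% ± 0.198) stood between miR-26a-5p (2.11%) and miR-1a-3p (1.74%), a miRNA of heart and skeletal muscle. At E9.5 (2.19% ± 0.801) it stood between miR-183-5p (2.26%) and let-7a-5p (2.06%). At E10.5 (6.40% ± 1.08) its neighbours were miR-92a-3p (7.35%) and miR-182-5p (6.38%), and at E11.5 (5.14% ± 0.967) miR-122-5p (5.30%), the main miRNA of liver, and miR-7a-5p (4.19%). At each of the 4 stages its range over libraries overlapped the range of both neighbours.

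The precursor row held far fewer counts. It had 720, 443 and 1053 counts at E8.5, 68, 33 and 167 at E9.5, 1477, 759 and 765 at E10.5, and 853, 2552 and 2244 at E11.5. How reads were divided between a precursor row and its arms was not given in the sources used here, so the precursor share below is a property of the table as deposited.

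Of the counts in both mir-375 entries, the precursor row held 5.99%, 6.02% and 8.58% at E8.5. It held 3.82%, 1.54% and 19.6% at E9.5. The share was 7.46%, 7.33% and 5.79% at E10.5, and 4.38%, 3.57% and 5.37% at E11.5. The stages overlapped except that every E11.5 library lay below every E8.5 and every E10.5 library. An exact permutation test over the 4 stages gave p = 0.940. E11.5 against E10.5 and against E8.5 each gave an exact two-sided p = 0.1, the smallest that 3 libraries against 3 allow.

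E9.5 replicate 3 stood apart in this measure. Without it the mean E9.5 precursor share was 2.68% instead of 8.32%. In that library 36.03% of all counts lay in precursor rows, against 20.7% and 21.8% in the other 2 E9.5 libraries and 10.2% to 13.6% elsewhere. The rows mir-6236 and mir-6240 alone held 28.3% of its counts, at least 12.7% of those of the other E9.5 libraries, and 3.10% or less elsewhere. It also had the lowest total, 53996 counts. The part of these features in the low miR-375-3p share of that library was not tested.

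**Figure D3:**
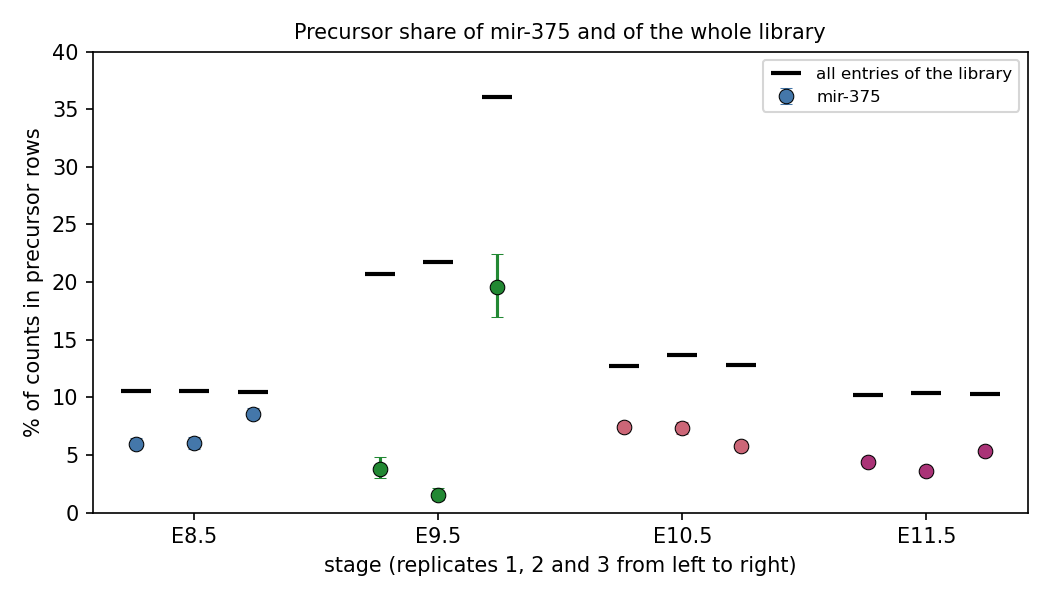
Precursor row as % of the counts of both mir-375 entries (circles, with exact 95% intervals) and precursor rows as % of all counts of the library (black marks), for 12 libraries in order of stage and replicate. E9.5 replicate 3 is highest in both measures, at 19.6% and 36.03%.

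The level of the precursor row was 1241, 1144 and 1518 CPM at E8.5 and 1107, 352 and 4222 CPM at E9.5. It was 5628, 6523 and 2979 CPM at E10.5 and 1947, 2338 and 2701 CPM at E11.5. All E10.5 libraries lay above all E8.5 and all E11.5 libraries, while E9.5 spanned a wide range. By the edgeR quasi-likelihood test 0 of 6 comparisons were called, and the smallest adjusted p was 0.0825 (E10.5 against E8.5, log2 fold change 1.95, SE 0.72). That comparison was the 1 with an unadjusted p under 0.05, and it was called by limma voom (adjusted p = 0.0187) and in a fit of those stages only (adjusted p = 0.00550), while DESeq2 called 0 of the 6. All E11.5 libraries lay below all E10.5 libraries, as for 3.68% of entries, and the fitted difference was -1.12 on the log2 scale (SE 0.70, adjusted p = 0.576). The F test over all stages gave an adjusted p of 0.175, and the exact permutation test p = 0.109.

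Calls of the precursor row turned on E9.5 libraries. Without E9.5 replicate 3 the rise from E9.5 to E10.5 was called (2.81, edgeR adjusted p = 0.0133) instead of 1.42 (adjusted p = 0.288), and the E9.5 against E8.5 value turned from 0.53 to -0.83. E10.5 against E8.5 was called without E9.5 replicate 1 (adjusted p = 0.0490), replicate 2 (0.0297) or replicate 3 (0.0226), with log2 fold changes of 1.97 to 2.02.

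The split of mir-375 between arm and precursor lay near the middle of abundant hairpins. Among the 57 hairpins with at least 10000 arm counts and a precursor row, the precursor share over all libraries had a median of 5.49% and ran from 0.479% to 65.6%. For mir-375 it was 5.24%, 28th from the lowest. Of these hairpins 2 held more arm counts than mir-375. Only 1 arm was listed for 11 of the 57, mir-375 among them, and where both arms were listed in the other 46, the main arm held a median of 97.9% of the arm counts. No arm ratio can be given for mir-375.

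The mature arms whose pattern over the 12 libraries was most like that of miR-375-3p were named by the smallest root mean square difference of log2 CPM after each entry's own mean was removed. Among 376 other mature arms tested, they were miR-379-5p (0.34), miR-182-5p (0.34), miR-370-3p (0.38), miR-183-5p (0.44) and miR-434-3p (0.45). The next arm was at 0.46, the median arm at 2.03, and the mir-375 precursor row itself at 0.89. The libraries and their depth are shared by all these profiles, and abundant arms have less counting noise, so this is a description only. The order of these 5 was the same with RLE and with library size alone. A scaling factor of a library nearly cancels in this measure, so that this is no check on the order.

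These 5 arms came from 2 places in the genome. How many of all tested arms lie in these places was not counted, so this too is a description only. miR-379-5p (chr12:109709065-109709085), miR-370-3p (chr12:109618305-109618326) and miR-434-3p (chr12:109594565-109594586) lie on the plus strand of the imprinted Dlk1-Dio3 region. miR-182-5p (chr6:30165962-30165986) and miR-183-5p (chr6:30169711-30169732) lie on the minus strand in 1 cluster of miRNAs known from sensory and neuroendocrine cells. Their RefSeq sequences (GRCm38.p6) are shown with the seed in capitals to let their seeds be set beside that of miR-375-3p, and none of the 5 seeds is the same as another.
miR-379-5p: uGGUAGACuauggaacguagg
miR-182-5p: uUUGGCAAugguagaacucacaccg
miR-370-3p: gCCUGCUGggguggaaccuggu
miR-183-5p: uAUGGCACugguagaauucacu
miR-434-3p: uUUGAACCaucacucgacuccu

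**Figure D4:**
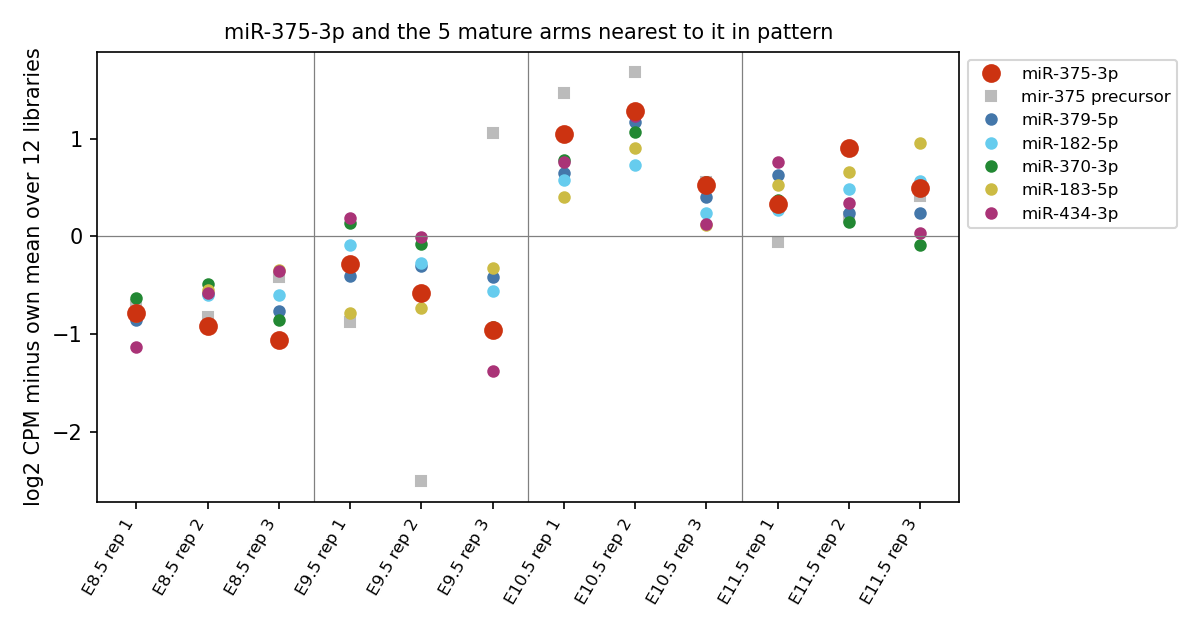
Log2 CPM minus each entry's own mean over 12 libraries, for miR-375-3p (large red circles), the 5 mature arms nearest to it in pattern and the mir-375 precursor row (grey squares). Vertical lines divide the stages. The 6 arms are mostly below 0 at E8.5 and E9.5 and above 0 at E10.5 and E11.5, while the precursor row spreads widely at E9.5.

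The fitted changes of the 5 arms are given beside those of miR-375-3p, which were 1.57 from E9.5 to E10.5, 1.90 at E10.5 against E8.5 and 1.51 at E11.5 against E8.5. From E9.5 to E10.5 the log2 fold change was 1.15 for miR-379-5p (SE 0.26, edgeR adjusted p = 0.0111), 1.11 for miR-183-5p (SE 0.24, adjusted p = 0.00853) and 0.82 for miR-182-5p (SE 0.20, adjusted p = 0.0222). These 3 calls were each lost under RLE, DESeq2, limma voom and a fit of those stages only, and when E9.5 replicate 2 or either of E10.5 replicates 1 and 2 was left out. That of miR-182-5p was also lost without E8.5 replicate 2 and without E11.5 replicate 3. The value of miR-370-3p was 1.04 (adjusted p = 0.141) and that of miR-434-3p 1.03 (adjusted p = 0.290). Against E8.5, miR-379-5p, miR-182-5p and miR-183-5p were called higher at both E10.5 (1.51, 1.18 and 1.07) and E11.5 (1.11, 1.10 and 1.28), and miR-370-3p at E10.5 (1.47, adjusted p = 0.0187). DESeq2 did not call the E11.5 values of the first 3 or the E10.5 value of miR-183-5p, which was also lost without E8.5 or E10.5 replicate 2. The call of miR-370-3p was lost with library size alone and without any 1 of the E8.5 libraries or E10.5 replicate 2. Whether miR-375-3p differed from these arms in its fold change was not tested.

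miR-26b-5p, from the nearest miRNA gene with rows, had a different course. Its mean level was 4857 ± 721 CPM (SD, n = 3) in E8.5 libraries and 4118 ± 4058 CPM in E9.5 libraries. It was 3519 ± 1464 CPM in E10.5 libraries and 6475 ± 1001 CPM in E11.5 libraries. The smallest edgeR adjusted p over its 6 comparisons was 0.516.

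Among other miRNAs linked to endocrine pancreas, 18 of the 22 on the list passed the filter. Called members were 3 at E9.5 against E8.5, 3 at E10.5 against E9.5, 0 at E11.5 against E10.5, 5 at E10.5 against E8.5, 5 at E11.5 against E8.5 and 2 at E11.5 against E9.5. Of all entries 5.60%, 4.38%, 0.350%, 8.58%, 11.6% and 4.55% were called in the same comparisons. All of the list's calls were higher at the later stage. For E11.5 against E10.5 the count was also 0 at an unadjusted p under 0.05, by DESeq2 and by limma voom. The median log2 fold change of the list was 0.42, 0.72, -0.08, 0.97, 0.68 and 0.63 in these comparisons, beside -0.84, 0.17, 0.07, -0.26, -0.07 and 0.66 for all tested entries. The called members were miR-7a-5p, miR-7b-5p, miR-24-3p, miR-182-5p and miR-183-5p. At E11.5 against E9.5 they were miR-182-5p, whose call was lost in 9 of 12 fits that left out 1 library, and miR-183-5p, whose call was lost in 0 of these fits but under RLE, DESeq2, limma voom and a fit of those stages only. For both E10.5 and E11.5 against E9.5, DESeq2 and limma voom each called 0 members of the list. The summed level of the list ranged from 111472 to 118777 CPM in the E8.5 libraries and from 139298 to 155513 CPM in the E9.5 libraries. It ranged from 212447 to 284688 CPM in the E10.5 libraries and from 215223 to 264996 CPM in the E11.5 libraries, so that here too the 2 later stages lay above the 2 earlier ones. The mean sum went from 148742 CPM at E9.5 to 251918 CPM at E10.5. Over this step miR-182-5p went from 37503 to 66341 CPM, miR-183-5p from 24214 to 52126 CPM and miR-7a-5p from 25223 to 55395 CPM. Most of the rise lay in these members, and miR-182-5p and miR-183-5p were already named as near to miR-375-3p in pattern. The sum is therefore no separate parallel to miR-375-3p.

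miR-7a-5p and miR-7b-5p, islet miRNAs like miR-375, were called higher already at E9.5. miR-7a-5p had a mean level of 7165 ± 671 CPM in E8.5 libraries against 25223 ± 7678 CPM in E9.5 libraries, a called difference of 1.81 on the log2 scale (SE 0.27, edgeR adjusted p = 6.26e-05). In E10.5 libraries it was 55395 ± 6965 CPM (1.13 against E9.5, adjusted p = 0.0128), a call lost under RLE, DESeq2, limma voom and a fit of those stages only, and without E10.5 replicate 1 or 2. In E11.5 libraries it was 41751 ± 9741 CPM (-0.41 against E10.5, adjusted p = 0.589). miR-7b-5p was low at E8.5, with 46, 14 and 31 counts (53.4 ± 22.8 CPM) and reached 2280 ± 1907 CPM at E9.5 (5.40, adjusted p = 1.82e-05). miR-24-3p also rose by E9.5, from 2343 ± 488 to 9283 ± 656 CPM (1.98, adjusted p = 8.60e-04), and these E9.5 against E8.5 calls were kept under every alternative.

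Ratios within a library do not depend on scaling between libraries. At E8.5 miR-375-3p counts were 2.39 to 2.61 times the sum of miR-7a-5p and miR-7b-5p. At E9.5 they were 0.765 to 0.993 times that sum, at E10.5 0.909 to 1.32 times and at E11.5 0.887 to 1.24 times. The E8.5 libraries lay apart from the other 9, and the 3 later stages overlapped one another.

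Against miR-122-5p the shift was larger. miR-375-3p counts were 32.9 to 36.4 times those of miR-122-5p at E8.5, 0.305 to 0.447 times at E9.5, 0.630 to 0.969 times at E10.5 and 0.607 to 1.45 times at E11.5. miR-122-5p itself had 343, 190 and 320 counts at E8.5 against 5619, 6017 and 1533 at E9.5. Every E8.5 library held far more miR-375-3p than miR-122-5p, and every E9.5 and E10.5 library held less.

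Against epithelial and sensory miRNAs the ratio moved with E10.5. Relative to the miR-200 family sum, 5 arms that mark epithelia, miR-375-3p was 1.62 to 1.99 times at E8.5, 0.849 to 1.25 times at E9.5, 2.16 to 5.00 times at E10.5 and 1.24 to 1.82 times at E11.5. The E10.5 libraries lay above all other libraries in this ratio. Relative to the sum of miR-183-5p, miR-96-5p and miR-182-5p, miR-375-3p was 0.273 to 0.406 times at E8.5, 0.271 to 0.431 times at E9.5, 0.516 to 0.591 times at E10.5 and 0.342 to 0.514 times at E11.5. Here too the E10.5 libraries were highest, although only just above the highest E11.5 library. Relative to miR-16-5p, a broadly expressed miRNA, the ratio was between 2.77 and 3.82 in E8.5 libraries and between 1.70 and 29.8 in E9.5 libraries. It was between 11.1 and 28.9 in E10.5 libraries and between 10.6 and 15.2 in E11.5 libraries.

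**Figure D5:**
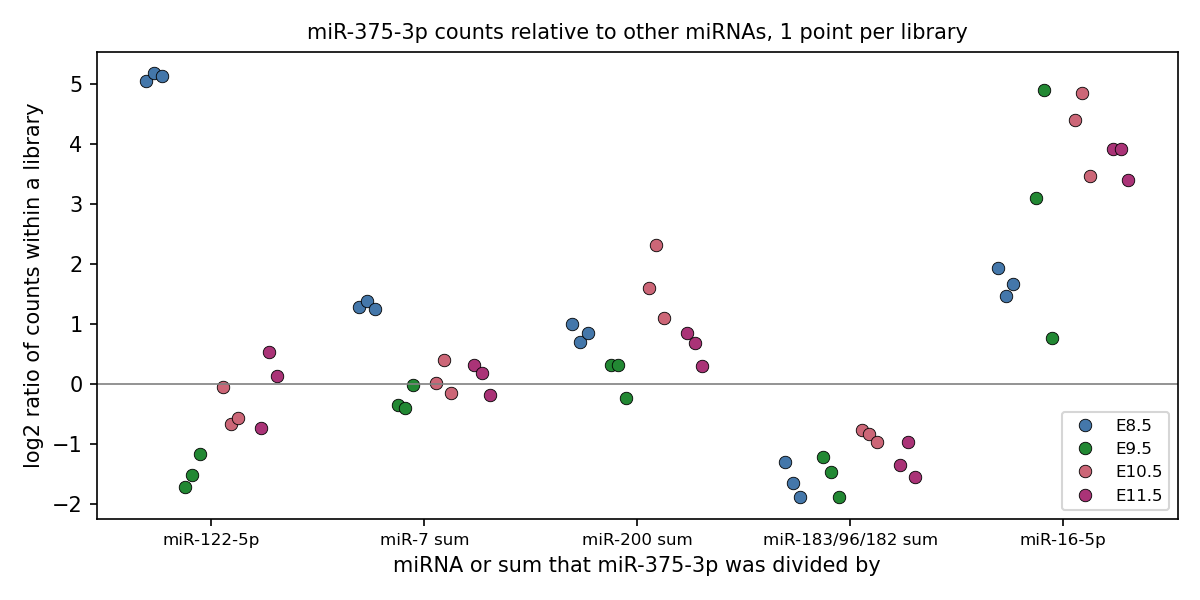
Log2 ratio of miR-375-3p counts to miR-122-5p, to the sum of miR-7a-5p and miR-7b-5p, to the miR-200 family sum, to the sum of miR-183-5p, miR-96-5p and miR-182-5p, and to miR-16-5p within each of 12 libraries, coloured by stage. The E8.5 libraries stand apart for miR-122-5p (ratio of 32.9 or more) and for the miR-7 sum (2.39 or more), and E10.5 is highest for the miR-200 sum.

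miRNAs of other cell types moved between stages beside miR-375-3p. In these bulk libraries, fewer cells of a type and less RNA per cell cannot be told apart. The 4 hepatic entries summed to between 467 and 716 CPM in E8.5 libraries and between 40502 and 94427 CPM in E9.5 libraries. The sum was between 72033 and 131017 CPM in E10.5 libraries and between 43998 and 70800.5 CPM in E11.5 libraries, and miR-122-3p was at 0 in all E8.5 and E10.5 libraries. The hepatic list had 2 of 3 tested members called higher at E9.5 than at E8.5 (miR-122-5p, 6.97, and miR-194-5p, 4.73), and 1, miR-122-5p, at E10.5 and E11.5 against E8.5 (7.47 and 6.66), where 4.03%, 4.38% and 5.25% of all entries were called higher. The call of miR-194-5p was lost without any 1 of the E8.5 libraries or E9.5 replicate 1, and in 4 of 9 alternatives with all libraries. Its counts were 56, 29 and 4 at E8.5 and 184, 3 and 68 at E9.5, and its levels overlapped between these stages. The part of these miRNAs in the miR-375-3p shares was not tested.

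The 7 epithelial members, all tested, were called higher in 1 case at E9.5 against E8.5 (miR-203-3p, of stratified epithelium, 4.69), in 2 at E10.5 against E8.5 (miR-200b-3p, 1.65, and miR-205-5p, 2.89) and in 4 at E11.5 against E8.5 (miR-200b-3p, 2.22, miR-200c-3p, 1.37, miR-429-3p, 2.14, and miR-205-5p, 2.71). Of all entries 4.03%, 4.38% and 5.25% were called higher in these comparisons. The sum of the list was between 9236 and 11352 CPM in E8.5 libraries, 20976 and 49022 in E9.5 libraries, 18829 and 27897 in E10.5 libraries, and 25349 and 42090.2 in E11.5 libraries. Leaving out 1 library at a time lost both calls of miR-205-5p with each library other than those of E9.5, in 9 of 12 fits. The calls of the other epithelial arms were lost without any 1 of the E8.5 libraries, except those of miR-200b-3p at E11.5 and of miR-203-3p, which was lost only without E9.5 replicate 3. Those of miR-200c-3p and miR-429-3p were also lost without E11.5 replicate 2 or 3, and that of miR-200b-3p at E10.5 without E10.5 replicate 3. Of 9 alternatives with all libraries, 3 lost the miR-205-5p call at E10.5 and 4 the miR-205-5p call at E11.5. The miR-429-3p call was lost in 3 and the miR-200c-3p call in 1.

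The muscle list had 3 of 5 members in the table and summed to between 6270 and 26465 CPM in E8.5 libraries, 5288 and 26850 in E9.5 libraries, 266 and 3517 in E10.5 libraries, and 280 and 1713 in E11.5 libraries. Its 1 tested member, miR-1a-3p, was called lower at E10.5 and E11.5 against both E9.5 (-3.03 and -3.98) and E8.5 (-3.41 and -4.36), the opposite direction to miR-375-3p. In either direction 4.38%, 4.55%, 8.58% and 11.6% of all entries were called in these comparisons. The 6 mesenchymal entries summed to between 6697 and 13131 CPM in E8.5 libraries, 1408 and 4981 in E9.5 libraries, 3386 and 11395 in E10.5 libraries, and 3784 and 8087 in E11.5 libraries. Of its 5 tested members miR-143-3p was called lower at E9.5 against E8.5 (-2.59) and higher at E10.5 against E9.5 (2.02). miR-199a-5p was called higher at E10.5 and E11.5 than at E8.5, where it had 0 counts in every library. At E10.5 it had 73, 0 and 80 counts, so that the libraries of E10.5 and E8.5 overlapped. miR-214-3p was called higher at E11.5 than at E8.5, where it had 1, 3 and 1 counts. The calls of miR-199a-5p and miR-214-3p were lost without any 1 of the E8.5 libraries, and that of miR-214-3p also without E11.5 replicate 1 or 3. The E10.5 against E9.5 calls were lost without E10.5 replicate 1, for miR-143-3p also without E9.5 replicate 2 or E10.5 replicate 3, and for miR-1a-3p without E9.5 replicate 3 or E10.5 replicate 2. Of 9 alternatives with all libraries, 4 lost this call of miR-143-3p and 2 that of miR-1a-3p. The calls of miR-143-3p at E9.5 against E8.5 and of miR-1a-3p at E11.5 against E9.5 were each lost in 1. These miRNAs of muscle and connective tissue were counted in the sorted material, and which cells they came from cannot be read from bulk libraries. Their part in the miR-375-3p values was not tested.

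The remaining lists were low, and in 54 tests of their members edgeR called 0, against 7 with an unadjusted p under 0.05, 6 called by DESeq2 and 2 by limma voom. Sums over a list ranged from 32.5 to 2274 CPM for 2 endothelial entries, 48.8 to 1315 for 3 erythroid, 10.7 to 2680 for 3 leukocyte and 97.6 to 1961 for 4 neural. The acinar list, with 2 of 3 members in the table, summed to at most 69.2 CPM in E8.5 libraries and 10.7 CPM in E9.5 libraries, and to between 7.79 and 476 CPM in E10.5 libraries and 56.6 and 285 CPM in E11.5 libraries.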

How the data were processed

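The authors sequenced small RNA of FACS-sorted cells (NEXTflex kit v3, single-end reads) and processed it with COMPSRA on mm10, using STAR, after adapter and random bases were trimmed. The submitters' notes also list GRCm39. The authors deposited raw read counts per miRNA entry, 1 column per library, with no use of molecular identifiers. Depth ran from 53996 to 1103383 counts per library.

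Counts as deposited were tested with edgeR 4.0.16 in R 4.3.3 (quasi-likelihood, TMM, filterByExpr with a minimum count of 10 and total of 15, 1 fit of 12 libraries with stage as factor). Benjamini-Hochberg adjustment ran over all 571 entries kept, called at 0.05. CPM used all counts and TMM factors, and log2 CPM a prior count of 2. The fit was tested on simulated data. Alternatives were RLE, library size alone, no filter, DESeq2 1.42.0, limma 3.58.1 voom, mature arms only, removal of mir-6236, mir-6240 and miR-122-5p, only the stages compared, a replicate block and leaving out each library. Replicate p-values measure the spread between these embryos.

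Both mir-375 entries passed the filter. Other entries were named by rule: members of 10 marker lists called in at least 1 comparison, the 5 arms nearest in pattern, neighbours in rank at each stage, and nearest miRNA genes. The mir-375 entries, the lists and the ratios were chosen with earlier results of these data known. RefSeq sequences were found for the hairpin, miR-375-5p and the 5 nearest arms.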

Additional observations from a re-analysis of the deposited data

How the results depend on the processing

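Calls of miR-375-3p against E8.5 at E10.5 and E11.5 were kept in all 9 alternatives with all libraries and in all 12 fits that left out 1 library. At E9.5 against E8.5 its log2 fold change, 0.34 by edgeR with TMM, was called under RLE (0.96). It was of like size but not called by DESeq2 (0.96) and in a fit of these stages only (0.92). At E10.5 against E9.5 it was not called by DESeq2 (1.10) or limma voom (1.43). At E11.5 against E9.5 it was not called under RLE (0.46), DESeq2 (0.46), limma voom (1.17) or a fit of these stages only (0.72), and it ran from 0.95 to 1.48 when 1 library was left out. RLE moved the median change over all entries by 0.64, -0.46 and -0.71 (log2) in these comparisons. The precursor row changed sign at E9.5 against E8.5 under limma voom (-0.41) and when 1 library was left out (-0.83 without E9.5 replicate 3, up to 1.30), and at E11.5 against E9.5 under RLE (-0.58), DESeq2 (-0.58), the fit of these stages only (-0.28) and when 1 library was left out (-0.39 without E9.5 replicate 2, up to 1.70). At E10.5 against E8.5 the precursor row was called by limma voom (1.78) and in the fit of these stages only (1.96). The causes were not tested.

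Numbers of entries called varied more. E9.5 against E8.5 had 32, with 50 under RLE, 63 by DESeq2 and 17 by limma voom (21 to 44 leaving out 1 library). E10.5 against E9.5 had 25, with 50 without a filter, 61 by DESeq2, 1 by voom and 11 in the fit of these stages only (7 to 42). E11.5 against E10.5 had 2, with 5 without a filter, 12 by DESeq2, 1 with mature arms only, 1 without mir-6236, mir-6240 and miR-122-5p, and 4 in the fit of these stages only (1 to 5). E10.5 against E8.5 had 49, with 109 by DESeq2, 108 by voom and 100 in the fit of these stages only (27 to 64). E11.5 against E8.5 had 66, with 147 by voom and 106 in the fit of these stages only (38 to 80). E11.5 against E9.5 had 26, with 61 by DESeq2, 6 by voom and 10 in the fit of these stages only (17 to 38). RLE changed the split of higher against lower calls from 23 and 9 to 44 and 6 at E9.5 against E8.5, from 9 and 16 to 1 and 23 at E10.5 against E9.5, and from 7 and 19 to 0 and 27 at E11.5 against E9.5. The mean share of miR-375-3p was 1.95% of all counts in E8.5 libraries and 2.19% in E9.5 libraries. Of mature arm counts it was 2.18% and 2.91%, so that the step between these means was wider. Without mir-6236, mir-6240 and miR-122-5p the means were 1.99% and 2.87%. The E10.5 mean was 7.36% of mature arm counts, and the E11.5 mean was 5.72%. The mean level of miR-375-3p in E8.5 libraries was 15849 CPM under RLE and 19509 CPM with library size alone. At E9.5 it was 30923 CPM under RLE.

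No pairing of libraries by replicate number was seen. Correlations of deviations between same-numbered libraries ran from -0.15 to 0.11, with 1 of 18 above 0.1. Between libraries of other numbers they ran from -0.14 to 0.13, with 2 of 36 above 0.1. With 3 libraries per stage and many low entries, this cannot exclude a pairing. A replicate block gave log2 fold changes of 0.32, 1.56, -0.37, 1.88, 1.51 and 1.19 for miR-375-3p in the 6 comparisons in the order of the report, with no call changed, and 26, 22, 3, 41, 61 and 23 entries called.

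With 3 libraries per stage, and totals of 53996 to 80075 counts at E9.5, changes of low entries were poorly measured, while miR-375-3p had 685 counts or more in every library. Stage, Cre driver and dissected region cannot be told apart between E8.5 and E9.5, nor can stage and the number in the library names in any comparison.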
